A study of Drosophila melanogaster with 50 samples.

Results

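The genes described here are 38 synaptic and neuronal excitability genes of Drosophila melanogaster, chosen by name and role and followed over all sample groups. A gene was taken as measured when a probe set of the array carried its symbol alone, and the brightest probe set by mean stood for a gene with several. This gave 34 of the 38 genes, among 11982 genes with such a probe set in the whole table. Syx1A, comt, Syt1 and mAChR-A were not analysed here. Of the 34 genes, 11 had several probe sets, and 16 of the chosen probe sets carry a suffix for shared hybridization, so that related transcripts may add to their values.

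Neurons pass signals by releasing transmitter from vesicles. A SNARE complex, formed by nSyb on the vesicle with Snap25 and syntaxin on the cell membrane, fuses the vesicle when the calcium channel cac admits calcium, and complexin (cpx), Rab3, synapsin (Syn), unc-13 and bruchpilot (brp) ready vesicles at the release site. The sodium channel para and the potassium channels Sh, Shab, Shal, Shaw, eag and slo shape the electrical signal, and the sodium pump, of which nrv3 is a beta subunit, restores the ion gradients. Acetylcholine, made by ChAT and loaded by VAChT, is the main excitatory transmitter of the fly brain, and GABA, made by Gad1, the main inhibitory one, with glutamate (loaded by VGlut) and the monoamines (ple, Ddc, Vmat, DAT and SerT) beside them.

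RNA of adult Oregon R flies was measured on 50 arrays from 3 ground facilities that alter gravity, and the sources used here name no dissected tissue and no number of flies per array. In the random positioning machine (RPM; 14C, 5 d old), the 0g groups hold 3 arrays labelled females and 4 labelled males, and the outside groups at 1g hold 3 of each label. In the magnetic levitator, females of 5 d were kept inside the field at 14C at 0g*, 1g* or 2g* (n = 3 each), outside at 14C (n = 2) or outside at 24C (n = 3), and further runs titled 80 h held 0g* (n = 2) and 1g* (n = 2) at 14C and an outside group at 24C (n = 3). In the large diameter centrifuge (22C), females of 5 d and of 20 d were kept at 2g (n = 4 each), in a rotational control at 1g (n = 2 each) and outside at 1g (n = 2 each). The values are log2 intensities, on which a difference of 1 is a 2-fold change. Each difference below is a contrast of group means from limma with its SE, and its p is adjusted over all 18769 probe sets, with a threshold of 0.05. Titles call the replicates biological, and their small number limits the precision.

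In the RPM, transcripts limited to 1 sex went against the labels. Medians of the accessory gland list, whose genes are active in males, lay at 11.97 to 12.09 where the label is females at 1g and at 3.72 to 3.82 where it is males. On 6 arrays both male and female transcripts were high: replicate 1 of magnet 1g*, replicate 1 of 80 h 1g*, and in the RPM replicate 1 labelled males at 0g, replicates 2 and 3 labelled females at 0g, and replicate 3 labelled females at 1g. The words "labelled females" and "labelled males" are therefore used throughout. RNA of a whole fly would hold all tissues, and fewer cells of a type and less RNA per cell cannot be told apart.

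Neuronal transcripts were detected in every group. As background served the level that 95% of 50 plant control probe sets did not exceed in a group (3.89 to 4.40), and a gene with a lower group mean is called below background. Of the 34 genes, 30 stood above this in all 18 groups. The tyrosine hydroxylase gene ple, which starts dopamine synthesis, lay below it in all 18. The dopamine receptor gene Dop1R1 was below it in 8 groups, the dopamine transporter gene DAT in 6 and para in 1.

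Group means of a gene spanned 0.44 to 2.84 on the log2 scale over the 18 groups, with a median span of 1.18, while the median SD within a group was 0.10 to 0.30 by gene. The span was over 1 in 19 genes and over 2 in 9. The widest was that of Rab3, a small GTPase of synaptic vesicles, with 8.24 ± 0.12 (SD, n = 3) on RPM arrays labelled females at 1g and 5.40 ± 0.86 (SD, n = 3) outside the magnet at 24C. RPM arrays labelled females gave the highest mean for 19 genes and magnet 1g* for 8. An outside group at 24C gave the lowest mean for 19 genes, in 11 of them the one of the magnet and in 8 the one of the 80 h runs. These groups come from different facilities and were not tested against each other. The values are as deposited, with array medians over all probe sets from 5.22 to 5.82. Such array-wide levels enter these spans and ranks.

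**Figure D1:**
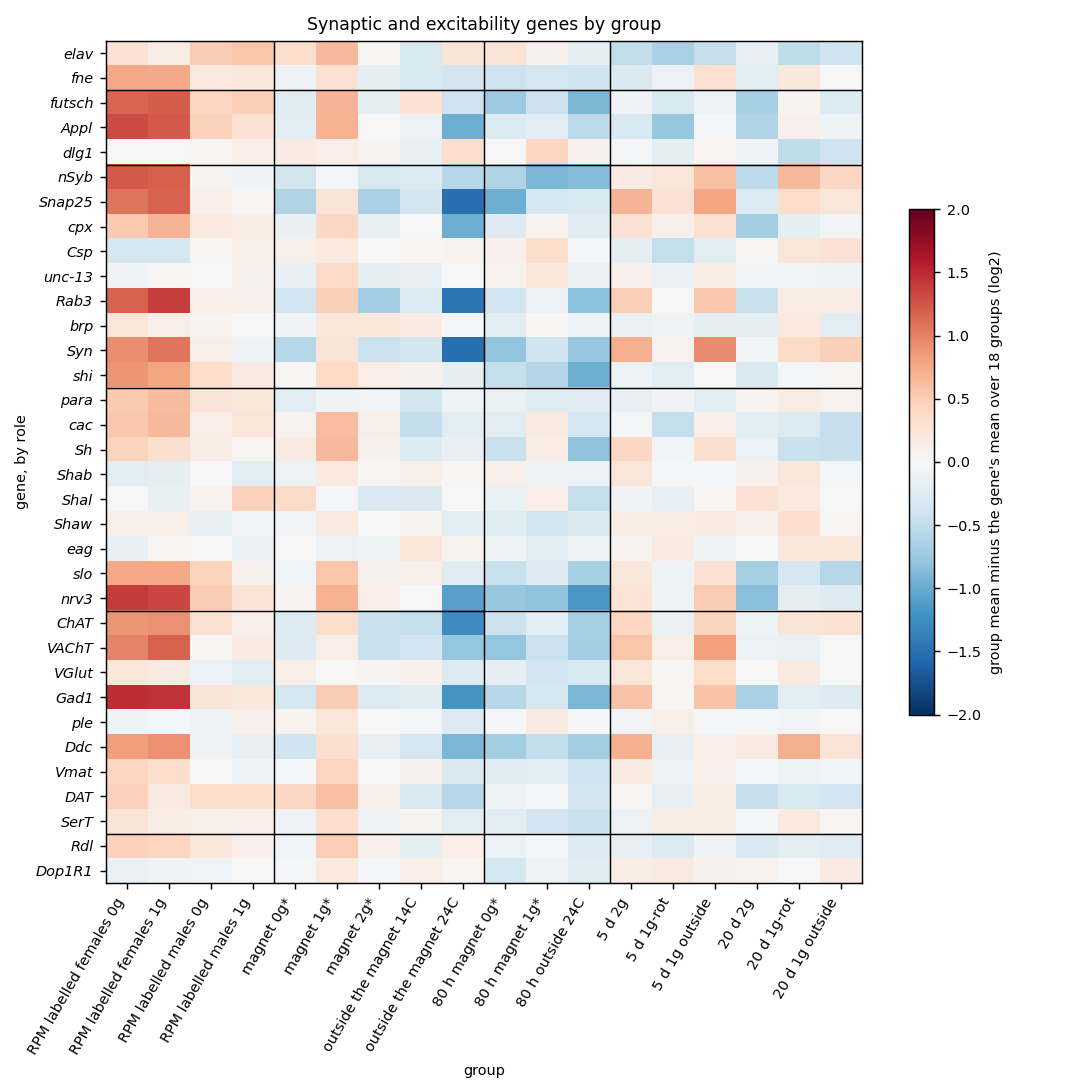
Each row is 1 gene and each column 1 of the 18 groups, and colour gives the group mean minus the gene's mean over the groups (log2). RPM arrays labelled females stand highest for 19 of the 34 genes, and an outside group at 24C stands lowest for 19. The values are as deposited, without centring of the arrays.

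The neuronal genes did not share 1 order. The RNA-binding protein gene elav, a standard marker of neurons, was highest at magnet 1g*, at 6.41 ± 0.22 (SD, n = 3), and next on RPM arrays labelled males at 1g, at 6.32 ± 0.15 (SD, n = 3). Its lowest mean was 5.12 ± 0.18 (SD, n = 2) in the 5 d rotational control. The release-site scaffold gene brp varied little, from 5.23 ± 0.25 (SD, n = 2) at 80 h 0g* to 5.70 ± 0.21 (SD, n = 3) on RPM arrays labelled females at 0g. The GABA receptor gene Rdl, a chloride channel of inhibitory synapses, lay between 6.36 ± 0.34 (SD, n = 4) at 20 d 2g and 7.14 ± 0.30 (SD, n = 3) at magnet 1g*. VGlut, the vesicular glutamate transporter gene, lay between 4.53 ± 0.09 (SD, n = 2) at 80 h 1g* and 5.28 ± 0.05 (SD, n = 2) outside the centrifuge at 5 d. The sodium channel gene para was lowest outside the magnet at 14C, where it was below background, and highest on RPM arrays labelled females at 1g, at 5.35 ± 0.17 (SD, n = 3).

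Between the labels, the share of these genes that passed was no larger than that of all probe sets. The calls leaned downward in the deposited values and split evenly at 1g after centring, which moves every probe set alike. Outside the RPM at 1g, 17 of the 34 passed the threshold (2 higher and 15 lower), which is 50% beside 52.4% of all probe sets (29.8% higher and 22.7% lower). The median difference was -0.42 over the genes and 0.06 over all probe sets. Array medians over all probe sets differed by -0.37 between the labels at 1g and -0.39 at 0g. With each array centred on its median, 18 genes passed, 9 higher and 9 lower, and the median over the genes was -0.05. Centring moved the difference of every probe set equally. The genes therefore stayed as far below the median of all probe sets as before. A call lost or gained on centring depends in part on the reference level chosen. The share of all probe sets that passed after centring was not computed. The 9 that were lower under both scalings were Appl, nSyb, Snap25, Rab3, Syn, nrv3, VAChT, Gad1 and Ddc. Centring added elav (0.77, SE 0.23, adjusted p = 0.0073), dlg1, Shab, DAT, SerT, Dop1R1 and the undetected ple to Csp and Shal on the higher side.

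Genes of vesicle release and recycling held 6 of the lower calls and 1 higher call among 9. The vesicle SNARE gene nSyb read 7.84, 7.83 and 7.88 on the arrays labelled females at 1g and 6.69, 6.43 and 6.60 on those labelled males. All arrays labelled males lay below all labelled females, with a difference of -1.28 (SE 0.13, adjusted p = 1.2e-06). Rab3 read 8.27, 8.10 and 8.34 against 7.19, 6.68 and 6.97, a difference of -1.29 (SE 0.20, adjusted p = 6.9e-05), again with no overlap. The membrane SNARE gene Snap25 differed by -1.15 (SE 0.23) and synapsin, which tethers vesicles, by -1.16 (SE 0.20). Dynamin (shi), which retrieves vesicle membrane, differed by -0.63 (SE 0.11) and complexin by -0.54 (SE 0.19, adjusted p = 0.032), and neither was called after centring. The complexin call was also lost without replicate 1 or 2 labelled males or replicate 1 or 3 labelled females.

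The vesicle chaperone gene Csp ran the other way. It read 9.17, 8.99 and 9.26 on arrays labelled females at 1g and 9.67, 9.56 and 9.60 on those labelled males. Every array labelled males was the higher, with a difference of 0.47 (SE 0.14, adjusted p = 0.01). Bruchpilot differed by -0.13 (SE 0.14) and unc-13, which primes vesicles, by 0.06 (SE 0.24), and neither passed in its chosen probe set.

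Of 9 transmitter genes, 5 were lower and 0 higher. Gad1 read 9.91, 9.94 and 9.91 on arrays labelled females at 1g and 8.89, 8.41 and 8.76 on those labelled males. The groups were far apart, with a difference of -1.23 (SE 0.19, adjusted p = 6.9e-05). VAChT differed by -1.02 (SE 0.17) and ChAT by -0.80 (SE 0.24, adjusted p = 0.013). Dopa decarboxylase (Ddc), which serves dopamine and serotonin synthesis and also the hardening of cuticle, differed by -1.07 (SE 0.17), and the vesicular monoamine transporter Vmat by -0.42 (SE 0.11). After centring ChAT and Vmat were not called. VGlut, at -0.39 (SE 0.17, adjusted p = 0.067), did not pass.

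Among 9 channel and pump genes, 3 were lower and 1 higher. The pump subunit gene nrv3 read 10.85, 10.97 and 11.09 on arrays labelled females and 9.95, 9.82 and 9.97 on those labelled males, a difference of -1.06 (SE 0.17, adjusted p = 9.9e-05). The groups did not overlap. The calcium-activated potassium channel gene slo differed by -0.67 (SE 0.19) and para by -0.43 (SE 0.13, adjusted p = 0.013), and neither was called after centring. Quantile normalization repeated over all arrays turned para to 0.01 (adjusted p = 0.96), and its call was lost without labelled females replicate 1.

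The potassium channel gene Shal, which carries a fast inactivating current, read 5.40, 5.14 and 5.41 on arrays labelled females and 6.11, 5.98 and 5.69 on those labelled males. All arrays labelled males were higher, with a difference of 0.61 (SE 0.20, adjusted p = 0.017), a call lost without replicate 1 or 2 labelled males or replicate 2 labelled females. Of the 3 genes of cytoskeleton, surface and scaffold 1 was lower, Appl, the fly relative of the amyloid precursor protein, at -0.93 (SE 0.22, adjusted p = 0.0026). The microtubule protein gene futsch differed by -0.74 (SE 0.36, adjusted p = 0.1). elav differed by 0.41 (SE 0.24, adjusted p = 0.18) and Rdl by -0.32 (SE 0.20, adjusted p = 0.21), and none of the 2 RNA-binding and 2 receptor genes passed.

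**Figure D2:**
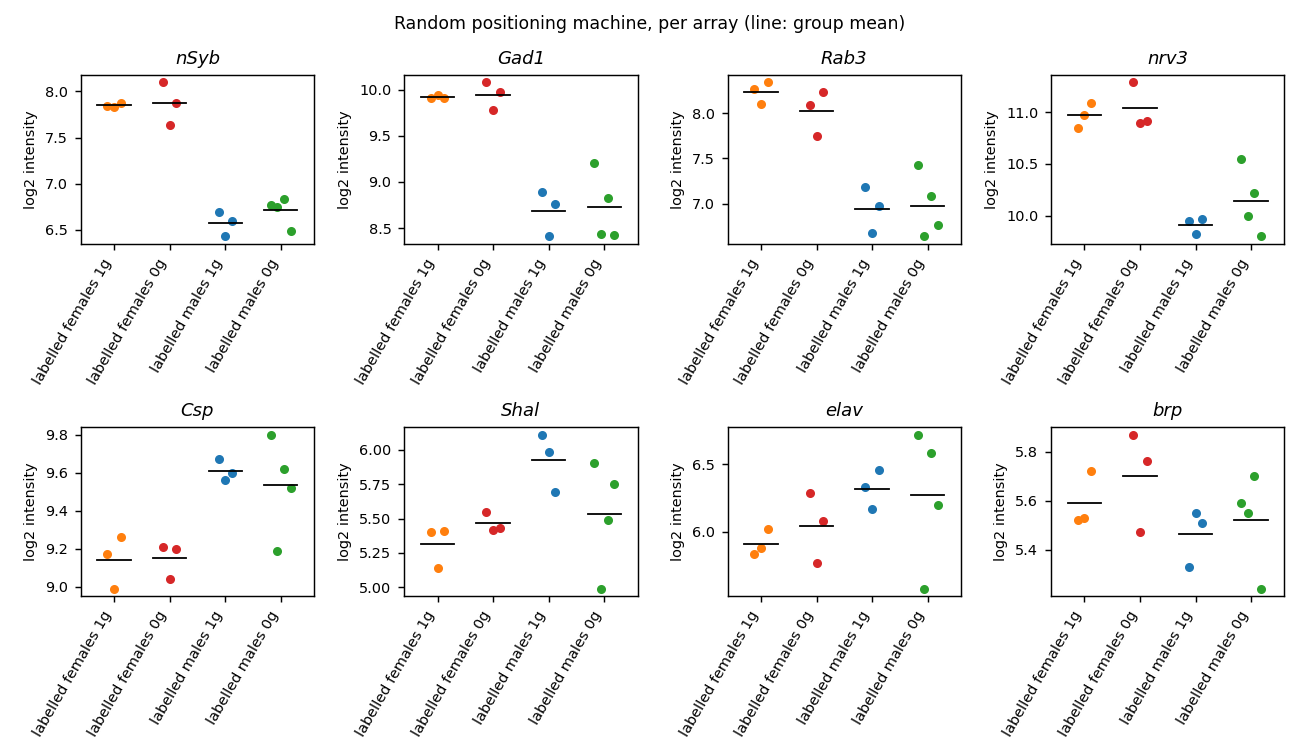
Each point is 1 array (log2 intensity) of the 4 RPM groups and each line a group mean. nSyb, Gad1, Rab3 and nrv3 stand lower on arrays labelled males than on those labelled females at 1g with no overlap, and Csp and Shal stand higher there.

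Inside the RPM at 0g, on other arrays, 13 of the 34 genes passed (1 higher and 12 lower), which is 38.2% beside 51.4% of all probe sets (30% higher and 21.4% lower). All 13 had also passed at 1g. nSyb differed by -1.16 (SE 0.12, adjusted p = 2.3e-06) and Gad1 by -1.22 (SE 0.18, adjusted p = 4.9e-05). Csp was again higher, at 0.38 (SE 0.13, adjusted p = 0.023), but its groups overlapped and the call was lost without labelled males replicate 1 or 3 or labelled females replicate 2. ChAT, at -0.59 (SE 0.23, adjusted p = 0.046), lost its call without labelled males replicate 2 or 4 or labelled females replicate 1 or 3. Centring gave 17 genes, 8 higher and 9 lower, with a median of 0.07 in place of -0.32. Over all probe sets the median was 0.13 before centring, which again moved all of them equally. With the arrays that hold both sexes left out, 16 genes were lower and 2 higher at 1g. At 0g that left 1 array labelled females, so no count is given there. The shares of all probe sets in these fits were not computed.

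Markers of other cells moved between the same arrays. At 1g the photoreceptor list was lower in 9 of its 10 genes, and its array medians lay at 7.96 to 8.10 for labelled males against 8.68 to 9.01 for labelled females. The glia list was lower in 4 of 7 genes and higher in 1, and the muscle list lower in 8 of 14. All 13 eggshell genes were higher, with a median difference of 6.04, and 18 of 19 accessory gland genes lower, with a median of -7.86. The 3' minus 5' difference of GAPDH, a sign of RNA quality, was 1.55 to 1.57 for labelled males against 1.30 to 1.42 for labelled females. Of 82 other genes of release, channels, receptors and transmitters, 7 were higher and 29 lower at 1g, and 6 higher and 33 lower at 0g. Beside all these lists stand the shares of all probe sets called, 52.4% at 1g (29.8% higher and 22.7% lower) and 51.4% at 0g (30% and 21.4%). The part of these cell types and of RNA quality in the differences above was not tested.

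Some genes differed between their probe sets, which were picked out after their values were seen. The synaptic scaffold gene dlg1 differed by 0.12 (SE 0.15, adjusted p = 0.57) in its chosen probe set at 1g, but by 1.95 (adjusted p = 4e-08) in another, which read 4.34, 4.46 and 4.42 on arrays labelled females and 6.35, 6.22 and 6.49 on those labelled males. Its remaining probe sets differed by -0.57 (adjusted p = 0.046) and -0.71 (adjusted p = 0.0057), opposite in sign. At 0g the same 3 probe sets of dlg1 differed by 1.69 (adjusted p = 1e-07), -0.54 (adjusted p = 0.047) and -0.88 (adjusted p = 0.00084). The potassium channel gene Shaw had no call in its chosen probe set but differed in the other by -1.33 (adjusted p = 1.4e-06) at 1g and -1.56 (adjusted p = 2.6e-07) at 0g. That probe set read 6.23, 6.27 and 6.0 on arrays labelled females at 1g and 4.87, 4.71 and 4.92 on those labelled males, with no overlap. The other probe set of cpx was lower as well, by -1.26 (adjusted p = 3.1e-05) and -0.66 (adjusted p = 0.0044). Another probe set of brp read 4.30, 4.14 and 4.43 on arrays labelled females at 1g and lay below background on those labelled males, with 3.57, 3.46 and 3.54. Its measured difference was -0.77 (adjusted p = 4.9e-05) at 1g and -0.86 (adjusted p = 1.1e-05) at 0g. A second probe set of Shab differed by -0.44 (adjusted p = 0.0068) at 1g and one of Sh by -0.66 (adjusted p = 0.047) at 0g.

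Between 0g in the RPM and 1g outside, none of these genes passed. By limma 0 of 34 did on arrays labelled females, where 0% of all probe sets passed, and 0 on those labelled males, where 0.00533% did, and at an unadjusted p under 0.05 the counts were 0 and 0 (6.49% and 5.74% of all probe sets). On arrays labelled females the smallest p downward was that of eag, a potassium channel gene, at -0.19 (SE 0.10, adjusted p = 0.78), and upward that of DAT, at 0.28 (SE 0.21, adjusted p = 0.87). On arrays labelled males they were those of Shal, at -0.39 (SE 0.18, adjusted p = 0.78), and slo, at 0.35 (SE 0.17, adjusted p = 0.78). The difference between the labels in the response to 0g also gave 0 of 34 (0% of all probe sets), with 1 at an unadjusted p under 0.05 (9.89% of all probe sets). Array medians over the 34 genes were 7.10, 6.05, 6.91 and 6.40 on replicates 1 to 4 labelled males at 0g and 6.37 to 6.64 at 1g, so that the 0g arrays spread on both sides of the 1g arrays.

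In the centrifuge, calls between 20 d and 5 d were most numerous at 2g. There 11 of the 34 genes were lower at 20 d and 0 higher, which is 32.4% beside 18.9% of all probe sets (10% higher and 8.86% lower). Outside at 1g, 4 were lower and 1 higher, 14.7% beside 11.1% of all probe sets (4.98% higher and 6.14% lower). In the rotational control 1 was higher and 0 lower, 2.94% beside 18.5% (8.22% higher and 10.2% lower). The medians over the 34 genes were -0.19, -0.16 and 0.14 in that order, and those over all probe sets -0.01, 0 and 0.01. The 2g comparison had 4 arrays an age and the others 2, and the differences between these counts were not tested. Gene by gene, the change with age at 2g differed from that outside in 0 of 34 (0.0586% of all probe sets). It differed from that in the rotational control in 2, nSyb and Gad1 (0.442%). Rotational control and outside differed in 0 (0% of all probe sets). The latter 2 tests were added after the data had been seen. The first 2 are the interactions given below for the response to 2g.

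Gad1 was lower with age at 2g and outside. At 2g it read 9.21, 8.87, 9.04 and 9.06 at 5 d and 7.75, 7.63, 7.90 and 7.99 at 20 d, with every older array below every younger one and a difference of -1.23 (SE 0.10, adjusted p = 1.9e-07). Outside it read 9.13 and 8.97 at 5 d and 8.24 and 8.19 at 20 d, a difference of -0.84 (SE 0.14, adjusted p = 0.00074). This call was kept without any single array, though each such fit left 1 array at one age and took its spread from the other groups. In the rotational control it read 8.47 and 8.52 at 5 d and 8.31 and 8.17 at 20 d, a difference of -0.26 (SE 0.14, adjusted p = 0.24) that did not pass. The younger rotational arrays were the low ones, below all 6 other arrays of 5 d.

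The pump subunit gene nrv3 read 10.04, 9.94, 10.08 and 9.58 at 5 d and 8.69, 8.41, 8.87 and 9.21 at 20 d at 2g. The ages did not overlap, with a difference of -1.12 (SE 0.15, adjusted p = 6.5e-05). Outside it differed by -0.77 (SE 0.22, adjusted p = 0.031), a call lost without any 1 of the 4 arrays. The potassium channel gene slo was lower at 2g by -0.89 (SE 0.14, adjusted p = 0.00019) and outside by -0.86 (SE 0.19, adjusted p = 0.008), the latter likewise lost without any 1 of the 4 arrays. DAT lay below background at 20 d, and on the log2 scale was lower by at least 0.28 at 2g (adjusted p = 0.0012) and by at least 0.31 outside (adjusted p = 0.012), the latter lost without any 1 of the 4 arrays.

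Among the 9 release and recycling genes, 5 were lower with age at 2g. Complexin read 8.58, 8.57, 8.65 and 8.10 at 5 d and 7.38, 7.25, 7.72 and 7.60 at 20 d, with no overlap between the ages. Its difference was -0.99 (SE 0.13, adjusted p = 3.8e-05), and its other probe set differed by -0.53 (adjusted p = 0.00061). Snap25 differed by -0.95 (SE 0.17), Rab3 by -0.94 (SE 0.19), synapsin by -0.77 (SE 0.18) and nSyb by -0.70 (SE 0.12). ChAT differed by -0.52 (SE 0.14, adjusted p = 0.016), a call lost without 20 d 2g replicate 2. The futsch difference of -0.60 (SE 0.18, adjusted p = 0.027) was lost without 20 d 2g replicate 2 or without 5 d 2g replicate 2, 3 or 4, and its other probe sets differed by -0.13 (adjusted p = 0.59) and -0.10 (adjusted p = 0.67).

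Csp was higher with age at 1g. In the rotational control it read 9.15 and 8.86 at 5 d and 9.79 and 9.68 at 20 d, a difference of 0.73 (SE 0.15, adjusted p = 0.0025). Outside it read 9.30 and 9.26 at 5 d and 9.90 and 9.64 at 20 d, a difference of 0.49 (SE 0.15, adjusted p = 0.041), which was lost on centring and without 20 d replicate 1 or either 5 d array. The ages did not overlap in either setting. At 2g the difference was 0.21 (SE 0.10, adjusted p = 0.19). elav differed by 0.06 (SE 0.28) outside, 0.14 (SE 0.28) in the rotational control and 0.33 (SE 0.20) at 2g with no call, and brp by -0.03 (SE 0.14), 0.26 (SE 0.14) and -0.05 (SE 0.10). In the rotational control a probe set of dlg1 other than the chosen one was higher with age, at 0.75 (adjusted p = 0.019), while the chosen one gave -0.31 (SE 0.18).

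**Figure D3:**
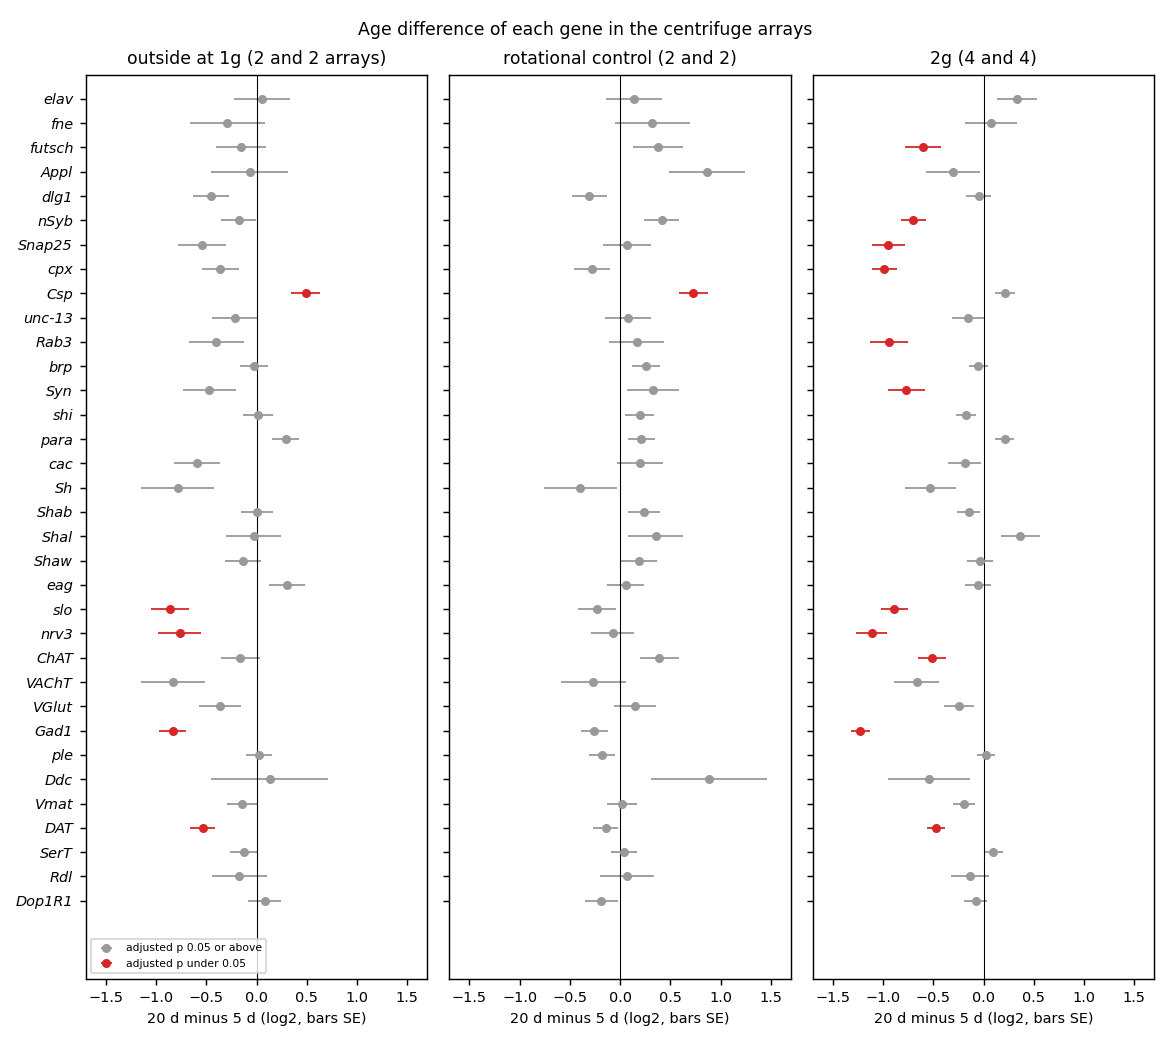
Each point is the difference of 1 gene between 20 d and 5 d (log2, with bars of 1 SE) outside at 1g, in the rotational control and at 2g, with calls at an adjusted p under 0.05 marked. At 2g 11 genes are called as lower, outside 4 are lower and Csp is higher, and in the rotational control Csp is the one call.

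Of the 11 genes lower with age at 2g, all but futsch and DAT were among the 15 lower on RPM arrays labelled males at 1g. These 9 are 81.8% of the first list and 60% of the second, beside 31.1% and 12.2% for the lower calls over all probe sets. Lower calls were themselves more frequent among these genes, so the shares do not start from the same base. They were 32.4% of the 34 at 2g beside 8.86% of all probe sets, and 15 of 34 in the RPM beside 22.7%. Of the 9, cpx, slo and ChAT were not called in the RPM after centring. Markers of other cells moved with age as well. The muscle list was lower in 14 of 14 genes at 2g and outside and in 11 of 14 in the rotational control. The photoreceptor list was lower in 7 of 10 genes at 2g, with array medians of 7.96 to 8.22 at 5 d and 7.20 to 7.68 at 20 d. It was lower in 2 of 10 genes outside, and in the rotational control 3 were higher and 0 lower. The female germline list was lower in 8 of 12 genes at 2g, 3 outside and 7 in the rotational control. The gut list was lower in 8 of 17 genes and higher in 3 at 2g, lower in 6 and higher in 2 outside, and lower in 9 and higher in 3 in the rotational control. The glia list was lower in 3 of 7 genes and higher in 2 at 2g, and lower in 2 and higher in 1 in both other settings. The eggshell list was lower in 4 of 13 genes in the rotational control and had 0 called in the others. Among the 82 other genes of release, channels, receptors and transmitters, 4 were higher and 15 lower at 2g, 3 higher and 5 lower outside, and 5 higher and 3 lower in the rotational control. Over all probe sets the shares called were 18.9% at 2g, 11.1% outside and 18.5% in the rotational control. The part of these cell types was not tested.

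For flies of 5 d at 2g in the centrifuge, 0 of 34 genes passed by limma against outside (0.0586% of all probe sets did) or against the rotational control (0.165%), with 2 and 7 at an unadjusted p under 0.05 (3.92% and 7.49% of all probe sets). Against outside the smallest p downward was that of nSyb, at -0.43 (SE 0.15, adjusted p = 1), and upward that of Shab, at 0.27 (SE 0.14, adjusted p = 1). Against the rotational control they were those of the serotonin transporter gene SerT, at -0.27 (SE 0.12, adjusted p = 0.62), and Gad1, at 0.55 (SE 0.12, adjusted p = 0.1). Rotation alone gave 0 of 34 too (0.0426% of all probe sets), with 7 at an unadjusted p under 0.05 (6.51% of all probe sets). The arrays of 25 of the 34 genes did not overlap there, beside 33.9% of all probe sets, and the median difference was -0.27. Gad1, at -0.56 (SE 0.14, adjusted p = 0.39), and synapsin, at -0.88 (SE 0.26, adjusted p = 0.6), had the smallest p values there, and each of those groups holds 2 arrays.

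At 20 d nSyb was lower at 2g than in both 1g groups. It read 6.06, 6.23, 6.06 and 6.15 at 2g, 7.40 and 7.22 in the rotational control and 7.32 and 6.83 outside. The 4 arrays at 2g lay close together and below every array at 1g. The difference was -1.19 (SE 0.15, adjusted p = 0.0013) against the rotational control, where 2.01% of all probe sets passed (1.33% higher and 0.682% lower), and -0.95 (SE 0.15, adjusted p = 0.0066) against outside, where 0.852% passed (0.506% higher and 0.346% lower). None of the other 33 genes passed in either comparison. Fitted on the compared groups alone, neither call held, and without 20 d outside replicate 1 the call against outside was lost (adjusted p = 0.26).

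Other genes had the same sign without passing. Complexin differed by -0.64 (SE 0.16, adjusted p = 0.079) against outside and -0.53 (SE 0.16, adjusted p = 0.097) against the rotational control. Gad1 differed by -0.40 (SE 0.12, adjusted p = 0.16) and -0.42 (SE 0.12, adjusted p = 0.08), and nrv3 by -0.58 (SE 0.19, adjusted p = 0.21) and -0.67 (SE 0.19, adjusted p = 0.08). With both 1g groups as 1 reference 4 genes were lower, nSyb with cpx (adjusted p = 0.016), Gad1 (0.023) and nrv3 (0.028). The share of all probe sets that passed with this reference was not computed. Upward, dlg1 had the smallest p, at 0.43 (SE 0.15, adjusted p = 0.17) against the rotational control. Between the 1g groups at 20 d 0 of 34 passed by limma (0.00533% of all probe sets), and 1 did at an unadjusted p under 0.05 (4.36% of all probe sets), with brp first at 0.42 (SE 0.14, adjusted p = 1).

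Beside these values, the photoreceptor list was lower at 20 d at 2g in 6 of 10 genes against either 1g group, with array medians of 7.20 to 7.68 at 2g, 7.68 to 8.12 in the rotational control and 7.76 to 8.02 outside. The glia list had 0 of 7 genes called and the muscle list 0 of 14. The 3' minus 5' difference of eIF-4a, another sign of RNA quality, was 0.99 to 1.26 at 2g, 0.62 to 0.67 in the rotational control and 0.79 to 0.81 outside, with no overlap. The part of these measures in the nSyb difference was not tested.

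The response to 2g differed between the ages for nSyb and Gad1 with the rotational control as reference, a test added after the data had been seen. The interaction was -1.12 (SE 0.21, adjusted p = 0.035) for nSyb and -0.97 (SE 0.17, adjusted p = 0.023) for Gad1, 2 of 34 genes (5.88%) beside 0.442% of all probe sets (0.266% higher and 0.176% lower). nSyb differed by -0.07 (SE 0.15) at 5 d and -1.19 (SE 0.15) at 20 d, and Gad1 by 0.55 (SE 0.12) and -0.42 (SE 0.12). For Gad1 the 5 d rotational arrays lay below all other arrays of that age. The Gad1 call was lost without 20 d rotational replicate 1 or either 5 d rotational array, and with either the compared groups alone or all arrays in the fit. The nSyb call was lost without 20 d 2g replicate 1 or 3, 20 d rotational replicate 1, 5 d 2g replicate 1, 2 or 3, or either 5 d rotational array (highest adjusted p 0.15). Against outside 0 of 34 passed by limma (0.0586% of all probe sets) and 3 had an unadjusted p under 0.05 (7.59% of all probe sets), with cpx at -0.63 (SE 0.22, adjusted p = 0.47) and nSyb at -0.53 (SE 0.21, adjusted p = 0.58).

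**Figure D4:**
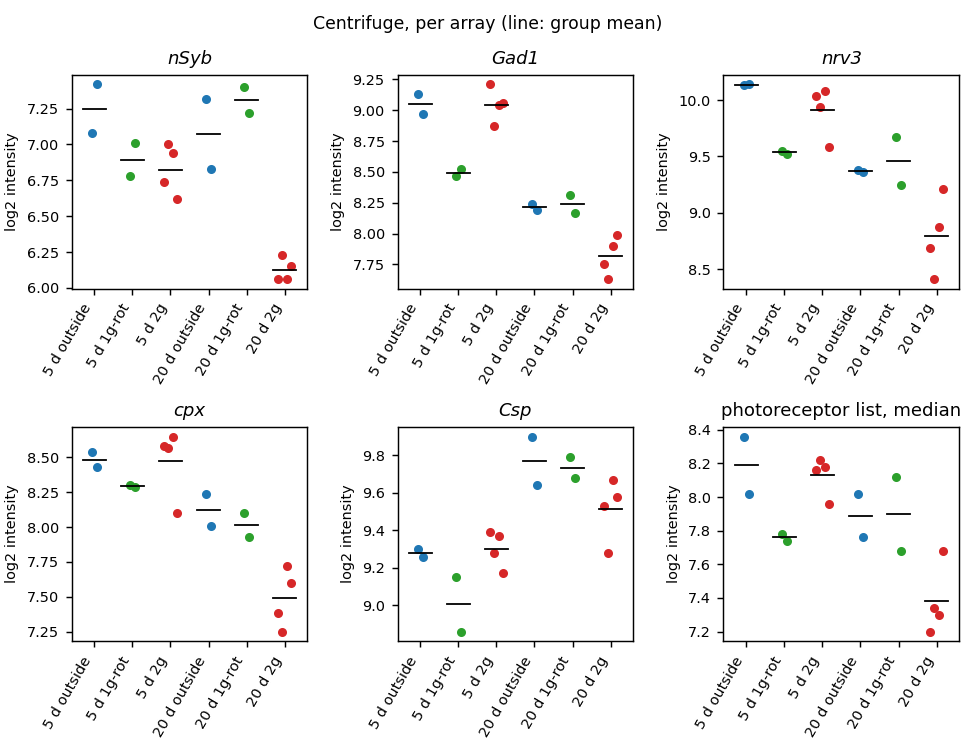
Each point is 1 centrifuge array (log2 intensity, and in the last panel the array's median over the photoreceptor list) and each line a group mean, by age and condition. nSyb at 20 d and 2g lies between 6.06 and 6.23, below every array at 1g of that age, and Gad1 and nrv3 lie lower at 20 d than at 5 d at 2g.

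In the magnet the 34 genes mostly stood higher at 1g* than in the other groups at 14C, but none passed. Against outside at 14C, 32 of 34 differences were positive, with a median of 0.43 (0 over all probe sets), and the arrays of 20 genes did not overlap, beside 28.7% of all probe sets. By limma 0 of 34 passed, beside 0.0266% of all probe sets, and 11 of the 34 had an unadjusted p under 0.05, beside 18.6% of all probe sets. The potassium channel gene Sh read 6.45, 6.17 and 6.16 at 1g* and 5.33 and 5.33 outside, a difference of 0.93 (SE 0.22, adjusted p = 0.17). elav read 6.66, 6.33 and 6.25 at 1g* and 5.62 and 5.27 outside, a difference of 0.97 (SE 0.23, adjusted p = 0.19). Neither gene's groups overlapped. DAT, below background outside, was at least 0.58 higher (adjusted p = 0.17). On the negative side stood eag, at -0.35 (SE 0.21, adjusted p = 0.38), and VGlut, at -0.09 (SE 0.21, adjusted p = 0.85), and VGlut turned to 0.06 without 1g* replicate 1.

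Against 1g*, levels at 0g* and 2g* were lower in most genes, with medians of -0.41 (30 of 34 negative) and -0.48 (31 of 34 negative). Again 0 of 34 passed by limma (0.0213% and 0% of all probe sets did), and 18 had an unadjusted p under 0.05 in each, beside 23% and 14.3% of all probe sets. These comparisons share the 1g* arrays. At 0g* futsch read 6.25, 5.83 and 6.12, against 7.31, 6.60 and 7.08 at 1g*, a difference of -0.93 (SE 0.24, adjusted p = 0.13) with no overlap. Appl differed by -0.91 (SE 0.26, adjusted p = 0.13), and upward Shal by 0.41 (SE 0.23, adjusted p = 0.29). At 2g* futsch differed by -0.87 (SE 0.24, adjusted p = 0.32) and ChAT by -0.80 (SE 0.22, adjusted p = 0.32).

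Between 0g* and 2g* the median difference was 0.01, with 0 of 34 passed by limma (0% of all probe sets) and 1 at an unadjusted p under 0.05 (3.73% of all probe sets), Shal, at 0.68 (SE 0.23, adjusted p = 1). Against outside at 14C the medians were -0.06 at 0g* and -0.02 at 2g*, with 0 of 34 passed (0% of all probe sets in both) and 3 and 0 at an unadjusted p under 0.05 (3.04% and 4.27% of all probe sets). The genes went both ways, with 15 higher and 19 lower in each by sign alone. The 3 at 0g* were DAT, below background outside, elav, at 0.68 (SE 0.23, adjusted p = 1), and Shal, at 0.67 (SE 0.25, adjusted p = 1). At 2g* the smallest p upward was that of cac, at 0.62 (SE 0.32, adjusted p = 1). futsch had the smallest p downward in both, at -0.53 (SE 0.27, adjusted p = 1) and -0.48 (SE 0.27, adjusted p = 1).

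The 1g* arrays differed among themselves in tissue markers. The eggshell list had medians of 7.17, 11.78 and 6.67 on replicates 1, 2 and 3, while the other groups inside and outside at 14C read 9.87 to 12.55. Replicate 1 also held accessory gland transcripts, with list medians on replicates 1, 2 and 3 of 8.77, 3.72 and 3.98. The photoreceptor medians at 1g* were 8.16 to 8.70, and those outside at 14C 7.54 to 7.81. Without 1g* replicate 2, 5 genes were lower at 0g* than at 1g* (Appl, futsch, Gad1, nSyb and shi) and 4 higher at 1g* than outside (cac, DAT, elav and Sh). With all 50 arrays in 1 fit, 13, 3 and 8 genes passed for 0g* against 1g*, 2g* against 1g* and 1g* against outside. The shares of all probe sets that passed without replicate 2 or in this fit were not computed. The part of these markers was not tested.

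Outside the magnet the 24C arrays stood below the 14C arrays in most genes without a call. The median difference was -0.27 (25 of 34 negative), 0 of 34 passed by limma beside 0.48% of all probe sets, and 12 had an unadjusted p under 0.05, beside 7.69% of all probe sets. Complexin read 6.72, 7.66 and 7.25 at 24C and 8.10 and 8.26 at 14C, a difference of -0.97 (SE 0.24, adjusted p = 0.15). nrv3 read 7.97, 9.09 and 8.58 against 9.39 and 9.91, a difference of -1.10 (SE 0.28, adjusted p = 0.16). The groups overlapped in neither, and 24C replicate 2 was nearest to 14C in both. Without it 4 genes passed as lower (cpx, nrv3, Snap25 and Syn), in a fit whose share of all probe sets was not computed. Upward, dlg1, at 0.50 (SE 0.20, adjusted p = 0.56), had the smallest p, but was -0.04 in its brightest probe set without a shared suffix.

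The 24C array numbered 1 has 14C in its characteristics, and its title was followed. The photoreceptor list was lower in 8 of 10 genes at 24C, and its array medians were 5.62 to 5.91 there against 7.54 to 7.81 in the cooler group. The muscle medians were 10.16 to 11.55 and 11.28 to 11.69, with 0 of 14 genes called. The part of these markers was not tested.

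In the 80 h runs 0 of 34 genes passed by limma for 0g* against 1g*, 0g* against outside or 1g* against outside, beside 0.00533%, 0.927% and 1.01% of all probe sets, with 3, 5 and 14 at an unadjusted p under 0.05 (6.92%, 11.1% and 14.2% of all probe sets). The outside arrays were kept at 24C, so field and temperature cannot be told apart in the last comparisons. Rab3 read 6.85 and 6.61 at 1g* and 6.03, 5.87 and 6.19 outside, a difference of 0.70 (SE 0.14, adjusted p = 0.06). Sh read 5.92 and 5.61 against 4.95, 4.64 and 4.84, a difference of 0.96 (SE 0.23, adjusted p = 0.094), and neither gene overlapped. Without 1g* replicate 2, Rab3 (adjusted p = 0.038) and Gad1 (adjusted p = 0.022) passed, but this fit leaves 1g* with 1 array, the one that holds both sexes, and takes its spread from the other groups. Snap25 was the first gene downward at 0g*, at -0.67 (SE 0.16, adjusted p = 0.11) against outside and -0.63 (SE 0.17, adjusted p = 0.65) against 1g*. A probe set of shi other than the chosen one passed, picked out after its values were seen, with 7.67 and 7.52 at 0g*, 7.34 and 7.55 at 1g* and 6.45, 6.45 and 6.77 outside. Its differences from outside were 1.04 (adjusted p = 0.02) and 0.89 (adjusted p = 0.033), while the chosen probe set gave 0.50 (SE 0.17) and 0.40 (SE 0.17).

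**Figure D5:**
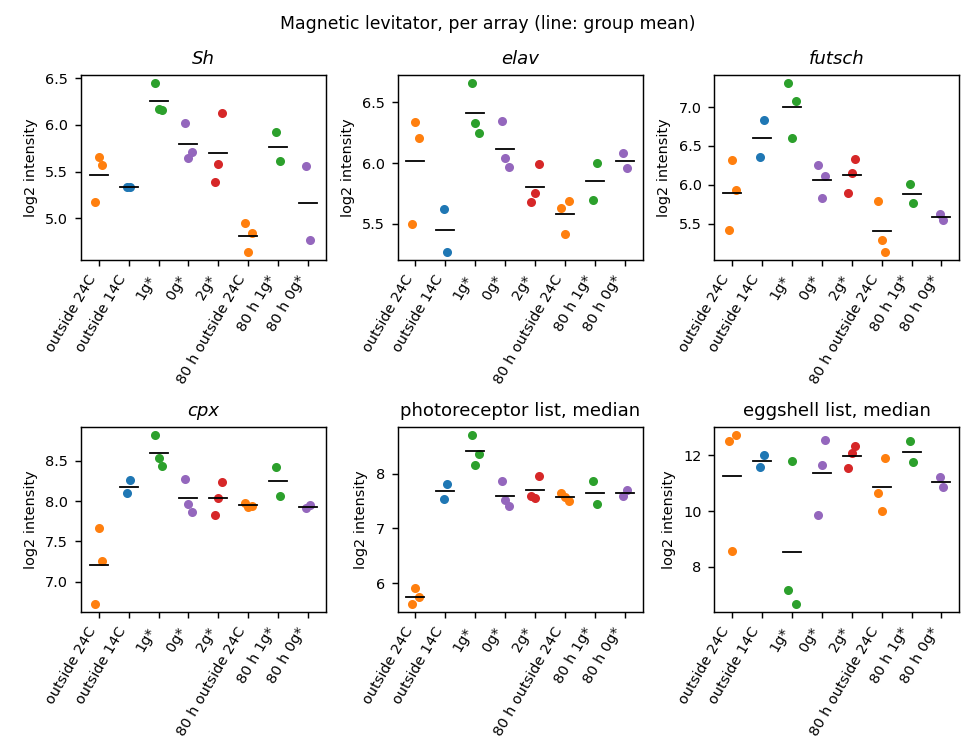
Each point is 1 magnet array (log2 intensity, and in the last panels the array's median over the photoreceptor and the eggshell list) and each line a group mean. Sh and elav stand above the outside 14C arrays at 1g* with no overlap, and the outside 24C arrays of the main runs have photoreceptor medians of 5.62 to 5.91.

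Over all 23 comparisons, 19 of the 34 genes passed the threshold at least once in their chosen probe set and 15 in none, and 16 comparisons had none of the 34 genes past it. The 15 were elav, fne, dlg1, unc-13, brp, cac, Sh, Shab, Shaw, eag, VGlut, ple, SerT, Rdl and Dop1R1. Among them are both RNA-binding protein genes, both measured receptor genes and 4 of the 6 potassium channel genes. Of the 15, brp, dlg1, Sh, Shab and Shaw had another probe set with a call.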

How the data were processed

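The authors deposited 1 table of log2 intensities for 50 Drosophila genome arrays, which the submitters' processing notes link to RMA and limma (versions not given in the sources used here). RMA corrects background, normalizes quantiles and summarises probes. Array medians of the deposited values ran from 5.22 to 5.82, so the 50 arrays were not held to 1 distribution. The deposited log2 values were used as given. Control probe sets (183 of 18952) were left out. Gene names came from the platform annotation, matched to RefSeq gene IDs for 13544 of the 13647 probe sets with 1 symbol; 402 had several symbols and 4720 none, and these stayed unnamed but in the tests. The highest correlation between 2 arrays was 0.9963, and no arrays held identical values.

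Group means were fitted with limma 3.58.1 (R 4.3.3), with 1 fit each for centrifuge, RPM, magnet and 80 h runs, and contrasts were tested with eBayes and Benjamini-Hochberg adjustment over 18769 probe sets. The p-values set each difference against the spread within groups, shared over all groups of a fit and drawn toward that of the other probe sets. Members and lists were chosen with earlier results of these data known. Genes named are up to 6 called in each direction, or, where none passed, those of smallest p, besides elav, nSyb, brp, para, ChAT, VGlut, Gad1 and Rdl. Where a group lay below background, a called difference is given as a lower bound against that group's 95th percentile of the plant controls. Same-numbered arrays did not all correlate above the limit set for pairing, so no replicate block was used. Comparisons with 2 such pairs could not meet that criterion. The scripts were tested on simulated data. Tried alternatives were centring, repeated quantile normalization, eBayes with trend and robust, a filter on dim probe sets, probe sets without a shared suffix, other sets of groups in the fit, replicate blocks, and arrays left out.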

Additional observations from a re-analysis of the deposited data

Results flagged for a closer look

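In the groups of 4 arrays, 7 of 102 sets of values had 1 array far from the other 3, where chance gives about 1 in 20. At 5 d and 2g, elav was 5.39 on replicate 1 and 5.21 to 5.24 on the others, eag was 5.19 on replicate 3 and 5.50 to 5.56 on the others, cpx was 8.10 on replicate 4 and 8.57 to 8.65 on the others, and Ddc was 10.24 on replicate 2 and 7.74 to 8.05 on the others. At 20 d and 2g, dlg1 was 8.43 on replicate 3 and 7.90 to 7.93 on the others. On replicate 2 of the same group Rab3 was 5.68 (6.57 to 6.68 on the others) and DAT 3.79 (3.95 to 3.96 on the others), the latter below background.

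The response to 2g against the rotational control differed between 20 d and 5 d for nSyb (interaction -1.12) and Gad1 (-0.97), by limma's test of the difference. Both calls were lost in several alternatives. Between 0g* and 1g*, nSyb differed by 0.31 in the 80 h magnet runs and by -0.32 in the other magnet runs, and neither passed. The groups did not overlap in either, as in 32.2% and 24.2% of all probe sets. Replicate 1 of 1g* in each run held transcripts of both sexes. The difference between the runs was not tested.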

How the results depend on the processing

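Each combination of a comparison or interaction with a setting was counted, apart from single arrays left out. The count of the 34 genes past the threshold stayed within 1.5 times its first value in 265 combinations and moved in 19. In 16 of the 23 comparisons the first value was 0, so staying there meant 0 genes again. The shares of all probe sets under these settings were not computed. With quantile normalization repeated, 2 genes passed at 20 d for 2g against the rotational control. With trend and robust in eBayes, 1 passed for 80 h 0g* against outside and 1 for 80 h 1g* against outside. With probe sets that have no shared suffix, 2 passed for age in the rotational control. Fitting the compared groups alone gave counts of 1 for 80 h 1g* against outside, 0 and 0 for 2g against outside and against the rotational control at 20 d, 9 for age outside, 2 for age in the rotational control and 1 for the difference between ages in the response to 2g against the rotational control. With all arrays in 1 fit, they were 13 for 0g* against 1g*, 3 for 2g* against 1g*, 8 for 1g* against outside, 6 for 24C against 14C, 3 for age outside and 1 for that difference between ages. Joining both 1g groups gave 4 and 4 at 20 d.

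Leaving out 1 array in turn gave 0 to 5 genes for 0g* against 1g*, 0 to 4 for 1g* against outside, 0 to 4 for 24C against 14C, 0 to 2 for 80 h 1g* against outside, 0 to 1 for 2g against outside and 1 to 2 for 2g against the rotational control at 20 d, 1 to 2 for age outside, 1 to 2 for age in the rotational control and 0 to 3 for the difference between ages against the rotational control. Comparisons with 3 or 4 same-numbered pairs did not meet the criterion set for pairing. Those with 2 pairs could not meet it at any correlation, and theirs ran from -0.34 to 0.28. The numbers are not taken as pairs, though pairing was not settled for those comparisons. A replicate block by title number gave 19 and 12 genes between the RPM labels at 1g and 0g, 6 for age outside and 12 for age at 2g, and by array letter 1 for the difference between ages against the rotational control, where nSyb lost its call under both blocks (adjusted p = 0.069 by title number and 0.077 by array letter).

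Of 2134 values of named genes under alternatives, 2020 kept direction and side of the threshold, 74 lost a call, 17 gained one and 23 changed sign. Repeated quantile normalization put para between the RPM labels at 0.007. Probe sets without a shared suffix turned shi at 0g in the RPM (-0.02 labelled females, -0.17 labelled males), futsch at 2g* against outside (0.11), dlg1 at 24C against 14C (-0.035) and in the difference between ages against outside (-0.42), and Shaw at 80 h 1g* against outside (0.54). Without arrays of both sexes, VGlut turned to -0.028 for 0g* against 1g*, -0.088 for 2g* against 1g* and 0.06 for 1g* against outside, and Shaw to 0.077 at 80 h 1g* against outside. Leaving out 1 array in turn, values with a change of sign ranged from -0.018 to 0.17 for shi at 0g on RPM arrays labelled females, -0.028 to 0.28 for VGlut and 0g* against 1g*, -0.088 to 0.22 for VGlut and -0.092 to 0.14 for eag and 2g* against 1g*, -0.45 to 0.26 for VGlut and 1g* against outside, -0.24 to 0.077 for Shaw and 80 h 1g* against outside, -0.012 to 0.82 for Ddc and 2g against outside at 5 d, and -0.39 to 0.05 for Dop1R1 and -0.23 to 0.005 for cpx between the 1g groups at 20 d. Placing 24C replicate 1 with the 14C arrays left 0 genes called there. The cause of these changes was not tested. The small number of arrays in a group, 2 to 4, limits what can be called.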
